A study of Marmota monax with 203 samples.

Results

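The 10 circadian clock genes ARNTL, CLOCK, NPAS2, PER1, PER2, PER3, CRY1, CRY2, NR1D1 and DBP were examined in liver biopsies of woodchucks chronically infected with woodchuck hepatitis virus (WHV). They were taken by their gene symbols from the 17587 genes named in the deposited expression tables, and all 10 had reads in all 149 biopsies analysed. Every animal was captive born and at 3 days of age was given an inoculum that held WHV strain WHV7-11. Viral markers were detectable about a year after infection. The animals were adult when treated, and their age at the first dose was not stated. All were thus infected and dosed, so no uninfected or untreated animals entered the comparisons. One group received woodchuck interferon alpha (wIFN-α) under the skin 3 times a week, at 20 µg until week 6 and at 100 µg from week 7, for 15 weeks in all. The other group received placebo on the same schedule, and both were then followed without dosing to week 23. Biopsies were analysed from week -3 (before dosing) and from weeks 0, 3, 7, 11, 15, 19 and 23, from 12 placebo animals (81 biopsies) and 11 wIFN-α animals (68 biopsies) of both sexes. Numbers per week ran from 12 down to 5 in placebo and from 11 down to 6 in wIFN-α. Biopsies of weeks 0 to 15 were taken 6 h after a dose. The clock time of the biopsies was not given in the sources used here. Nor was the interval from dosing for week -3 and the follow-up. A change over the weeks and a change in the hour of sampling thus cannot be told apart. The sources also did not state whether both groups were biopsied at the same hours. A difference between the groups within a week and a difference in their hour of sampling thus cannot be told apart either.

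The mammalian clock is a transcriptional feedback loop that runs in almost every cell, liver cells included. ARNTL (also called BMAL1) pairs with CLOCK, or with the CLOCK relative NPAS2, and the pair switches on the period genes (PER1, PER2, PER3), the cryptochromes (CRY1, CRY2), the nuclear receptor gene NR1D1 (REV-ERBα) and DBP, a transcription factor of the PAR bZIP family. The period and cryptochrome proteins then repress their own activators, and NR1D1 represses ARNTL and NPAS2. In liver, the RNAs of ARNTL and NPAS2 therefore peak at a different time of day from those of DBP and the period genes, and the loop times much of liver metabolism.

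Biopsies held 12072840 to 84805845 reads on genes (median 28754894), and the members were counted with 3 (NPAS2 in a biopsy described next) to 6996 reads (PER1) per biopsy. The tissue label was checked against 8 hepatocyte genes, ALB among them, which all had reads in all 149 biopsies and together took a median of 8.74% of reads. In 2 biopsies of week -3, from placebo animal 1016 and wIFN-α animal 1018, these 8 genes took only 0.0343% and 0.0221% of reads, while 20 skeletal muscle genes took 15.1% in each. Values include these 2 biopsies unless stated. Beside member results that rest on week -3, the calls that ended and the member values that moved without them are given. Over 1% of reads fell on the muscle genes in 22 of the 149 biopsies. At week 3 the muscle genes took a median of 0.79% of reads in placebo (0.027% to 12.4%). In wIFN-α they took a median of 0.041% at that week (0.030% to 3.00%). At week 0 they reached 8.23% in 1 wIFN-α biopsy. Fewer cells of a type and less RNA per cell cannot be told apart in such bulk samples.

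Levels between genes were compared per length, as CPM (read counts scaled to a common library size) per kilobase, in the 80 placebo biopsies that held liver RNA. PER1 was the most abundant with a median of 11.1, followed by DBP at 6.23, NR1D1 at 5.77, CRY1 at 5.02 and PER3 at 4.84. CRY2 at 3.41, PER2 at 2.20 and CLOCK at 2.19 came next, and ARNTL at 0.930 and NPAS2 at 0.484 were lowest. The repressor and output genes thus had higher medians than ARNTL and NPAS2, while PER2 and CLOCK were level. Neighbours in the middle of this order were not separated: NR1D1 exceeded CRY1 in 43 of 80 biopsies, CRY1 exceeded PER3 in 43 and PER2 exceeded CLOCK in 42. CLOCK exceeded ARNTL in 71 of 80 biopsies. CLOCK was also the narrowest member, between 1.36 and 3.49, whereas NR1D1 ran from 0.823 to 29.3 and ARNTL from 0.108 to 4.22.

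In 9 of 10 members, expression varied more among animals sampled in the same week than that of the median gene did. The exception was CLOCK. In placebo, the SD of log2(CPM + 1) within a week was 0.80 for ARNTL, 0.78 for NPAS2, 0.78 for NR1D1, 0.72 for PER2 and 0.71 for DBP, against 0.28 for the median of 13866 genes. The SDs of PER1 (0.64), PER3 (0.54), CRY2 (0.44) and CRY1 (0.43) also lay above that median, and that of CLOCK was 0.26. ARNTL varied more than 95.0% of genes, and CLOCK more than 46.3%. The wIFN-α biopsies had the same outline, with SDs of 0.83 for ARNTL, 0.84 for NPAS2, 0.84 for NR1D1 and 0.22 for CLOCK. Where 1 biopsy had been sequenced in several runs (37 biopsies), the runs differed by a median of 0.057 to 0.14 on the log2 scale across the 10 members. In placebo at week 7, for example, ARNTL ran from 0.667 to 13.2 CPM with a median of 4.28 (n = 12).

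**Figure D1:**
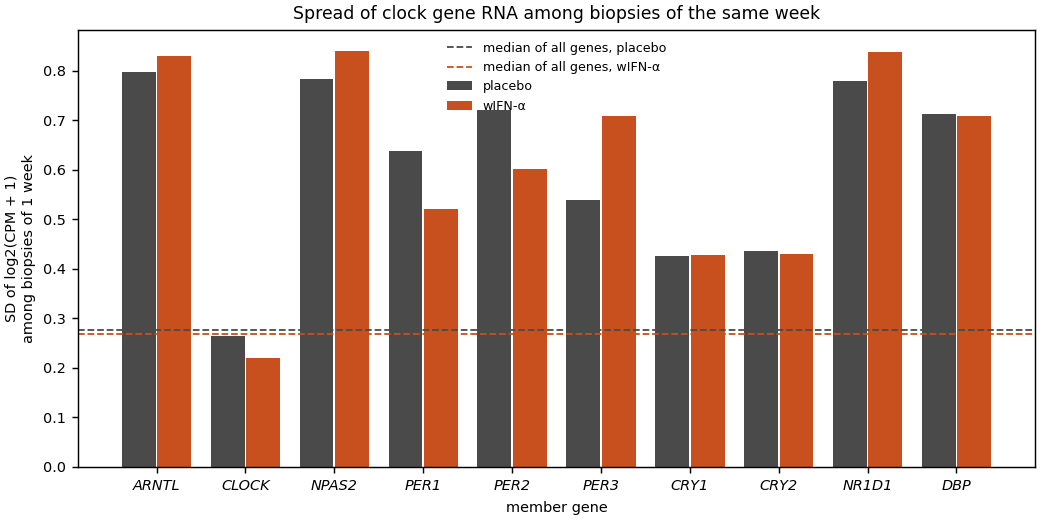
Bars give the SD of log2(CPM + 1) among biopsies of the same week (y axis) for each member gene (x axis) in 80 placebo and 67 wIFN-α biopsies with liver RNA, and dashed lines the median SD of the genes whose mean reached 1 CPM. Every member but CLOCK stands above the dashed lines.

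This variation was ordered. After the mean of each week was removed, ARNTL and DBP moved in opposite directions in placebo (Pearson's r = -0.84, Spearman's rho = -0.84, n = 80 biopsies of 12 animals), and r was -0.84 without the 2 biopsies farthest from the median of ARNTL. In wIFN-α biopsies r was -0.77 (rho = -0.77, n = 67). Over all weeks together, ARNTL rose and fell with its partner NPAS2 (r = 0.76 in placebo, 0.73 in wIFN-α) and with CRY1 (0.65 and 0.61). DBP, PER3, PER2 and CRY2 formed the opposite group, with r = 0.76 between DBP and PER3 in both treatments and r = 0.67 (placebo) and 0.73 (wIFN-α) between PER2 and PER3. CRY1 stood apart from CRY2: the pair had r of -0.25 in placebo and -0.10 in wIFN-α, while CRY1 opposed NR1D1 (-0.54 and -0.66). PER1 followed neither group closely, with r between -0.48 (CLOCK) and 0.40 (CRY2) in placebo. These are descriptions across biopsies that share animals and library preparation, and no p is given for them. Taken 1 week at a time, with 1 biopsy per animal, r of ARNTL with DBP was negative in 15 of 15 groups of at least 6 biopsies, between -0.98 and -0.54, and r of PER3 with DBP was positive in 15 of 15, between 0.59 and 0.99. The pairs ARNTL with NPAS2 (-0.12 to 0.93) and CRY1 with NR1D1 (-0.97 to 0.20) were less even, negative in 1 and in 13 of the 15 groups. In wIFN-α, r of ARNTL with NPAS2 was 0.32, 0.26 and -0.12 at weeks 7, 11 and 15, against 0.78, 0.79 and 0.80 in placebo. By rank the groups were level at week 11: rho was 0.5, 0.48 and -0.14 in wIFN-α against 0.80, 0.49 and 0.38 in placebo. Placebo animal 1001 had the highest value of both genes at weeks 11 and 15. At the other wIFN-α weeks r of this pair was 0.66 to 0.93. For ARNTL with CRY1 in wIFN-α, r was 0.18, 0.435, 0.19 and 0.21 at weeks 3, 7, 11 and 15. It was 0.71 to 0.98 at the other wIFN-α weeks. These differences between weeks were not tested.

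**Figure D2:**
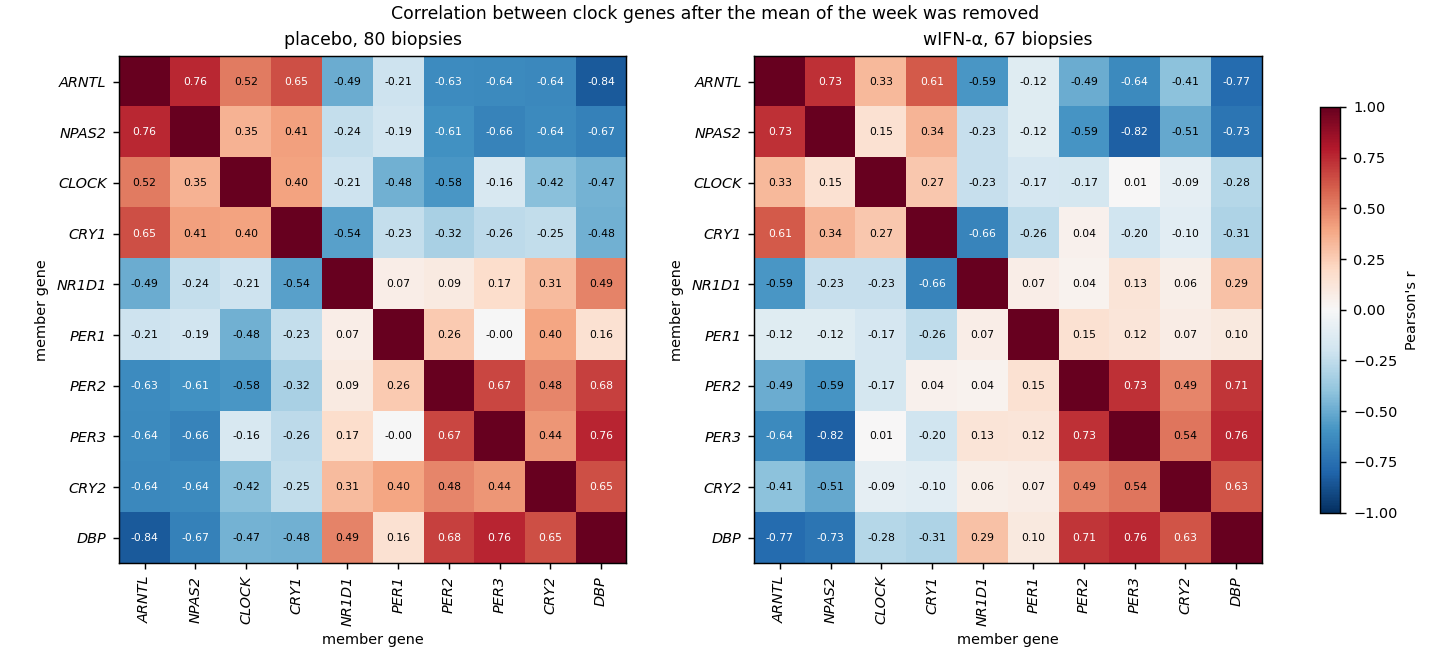
Colour and printed value give Pearson's r between each pair of member genes (both axes) on log2(CPM + 1) after the mean of the week was removed, at left in 80 placebo and at right in 67 wIFN-α biopsies. ARNTL, NPAS2 and CRY1 are positive with each other and negative with DBP, PER2, PER3 and CRY2, apart from the value of CRY1 with PER2 in wIFN-α, which is 0.04.

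Over all genes, the RNAs most like ARNTL across the 81 placebo biopsies, the weeks included, were NPAS2 (r = 0.85), ABLIM3 (0.82), TRMT1 (0.79), CLDN1 (0.79) and LOC286002 (0.79). The most opposite were DBP (-0.87), UTS2 (-0.82), HLF (-0.81), PER3 (-0.77) and CRY2 (-0.74), so that 4 of these 10 genes were members and HLF is another PAR bZIP factor. Without the biopsy that lacked liver RNA (80 biopsies), SEPHS2 (-0.74) took the place of CRY2 and the other 9 genes stayed. The same measure for NR1D1 gave its paralog NR1D2 (0.81), THRA (0.75), C17orf58 (0.75), SLC2A12 (0.71) and ADO (0.71) as most alike, and CRY1 (-0.72), ABLIM3 (-0.70), CCDC134 (-0.68), ODF3B (-0.68) and GPR126 (-0.68) as most opposite. Without that biopsy ANAPC11 (0.71) replaced ADO, and IGF2BP2 (-0.69) and RRBP1 (-0.68) replaced CCDC134 and ODF3B. THRA is annotated without overlap with NR1D1 in the woodchuck RefSeq table, and the counting was not stated to use strand.

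Comparing the placebo biopsies with each other asked whether the clock genes moved without interferon. They did: over the 8 weeks, 9 of 10 members changed (edgeR quasi-likelihood F test, adjusted p between 1.16e-08 for DBP and 0.0355 for PER1), and CLOCK did not pass (adjusted p = 0.355). This stands beside 68% of all 15984 genes tested, so a change over the 8 weeks was common. Over weeks 0 to 15 alone, whose biopsies share the interval from dosing, the same 9 members changed (adjusted p between 4.53e-08 for DBP and 0.0428 for PER1) and CLOCK did not (adjusted p = 0.999), beside 32.3% of all genes. Without the placebo biopsy that lacked liver RNA, 9 members passed in both tests. These tests had no term for the animal, and 9 members also passed in both with a replicate block by animal. PER1 was the weakest of the 9: it no longer passed over the 8 weeks when animal 1005, 1009, 1011, 1015, 1016, 1017, 1019 or 1024 was left out, with adjusted p up to 0.115, nor over weeks 0 to 15 without 1009, 1011, 1015, 1016, 1017, 1019, 1021 or 1024, with adjusted p up to 0.126. CRY2 failed in both tests only without animal 1008, by a small margin (adjusted p = 0.0501 and 0.0514).

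Week 0 stood apart from the other weeks. PER2 fell from a median of 28.8 CPM at week -3 (8.23 to 74.3, n = 12) to 6.48 CPM at week 0 (2.74 to 14.3, n = 12), and was at 19.9 CPM at week 3 (7.17 to 34.4, n = 12). DBP went from 13.7 CPM (4.85 to 30.2) to 2.77 CPM (1.67 to 7.85) and back to 6.80 CPM (2.20 to 14.8) over the same weeks. PER3 went from 36.9 CPM (18.0 to 57.1) to 12.1 CPM (7.84 to 32.1) and 25.0 CPM (10.1 to 50.01). These 3 members of the group opposite to ARNTL were thus all low at week 0. ARNTL was highest then, with a median of 8.24 CPM at week -3 (1.35 to 11.4), 12.7 CPM at week 0 (7.002 to 21.7) and 6.22 CPM at week 3 (3.81 to 19.9), and NPAS2 went from 10.98 CPM (0.165 to 21.9) to 23.5 CPM (5.77 to 36.3) and 6.30 CPM (3.00 to 22.2).

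Against week -3, 6 of 10 members were called at week 0, that is, passed an adjusted p of 0.05 and changed by more than 1.5-fold, beside 8.03% of all genes. PER2 fell by 2.24 on the log2 scale (SE 0.31, adjusted p = 1.95e-07), DBP by 1.95 (SE 0.32, adjusted p = 5.96e-06), PER3 by 1.20 (SE 0.22, adjusted p = 5.10e-05) and PER1 by 0.72 (SE 0.27, adjusted p = 0.0471). ARNTL rose by 1.10 (SE 0.40, adjusted p = 0.0447) and NPAS2 by 1.13 (SE 0.40, adjusted p = 0.0400). Without the week -3 biopsy that lacked liver RNA, the week -3 range of NPAS2 was 2.89 to 21.9 CPM (median 11.1), its change 1.004 (adjusted p = 0.0498), and the medians of PER2, PER3, DBP and ARNTL were 27.7, 38.6, 14.6 and 8.31 CPM. The calls of ARNTL and PER1 were lost without the biopsy that lacked liver RNA (log2 1.02 and -0.57, adjusted p = 0.0647 and 0.120), which left 4. ARNTL was also not called without biopsies over 1% muscle reads. Leaving out 1 animal also ended 3 of the calls: that of ARNTL without 1008, 1009, 1010, 1015, 1016, 1019, 1021 or 1024 (adjusted p up to 0.0905), that of NPAS2 without 1001, 1008, 1009, 1010, 1015, 1017, 1019 or 1021 (up to 0.0864) and that of PER1 without 1008, 1009, 1011, 1015, 1016, 1017, 1019, 1021 or 1024 (up to 0.172). The hepatocyte genes took a median of 14.3% of placebo reads at week -3 and 9.90% at week 0. The part of this difference in the result was not tested. The 7 comparisons with week -3 share the same week -3 biopsies.

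NR1D1 climbed late in the study. Its median in placebo was 7.56 CPM at week -3 (4.20 to 29.6, n = 12), 6.31 CPM at week 0 (3.21 to 18.9, n = 12), 7.65 CPM at week 3 (2.28 to 23.2, n = 12) and 14.4 CPM at week 7 (5.15 to 39.7, n = 12). It was 21.1 CPM at week 11 (11.4 to 45.8, n = 10), 24.1 CPM at week 15 (12.4 to 38.5, n = 9) and 43.4 CPM at week 23 (15.6 to 81.4, n = 9). In the 5 placebo biopsies of week 19 it stood at 26.8, 38.3, 39.5, 56.2 and 79.7 CPM. All 5 were above the median of every earlier week. Relative to week -3, NR1D1 rose by 1.12 (log2, SE 0.36) at week 11, 1.03 (SE 0.37) at week 15, 1.99 (SE 0.42) at week 19 and 1.84 (SE 0.37) at week 23, with edgeR adjusted p of 0.0155, 0.0290, 0.000704 and 0.000104. Without the biopsy that lacked liver RNA these values were 1.31, 1.23, 2.18 and 2.04, all called. The call at week 11 was lost without animal 1008, 1017 or 1019 (adjusted p up to 0.0609) and that at week 15 without 1001, 1008, 1015, 1017 or 1019 (up to 0.0987).

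ARNTL and NPAS2 were low late in treatment. NPAS2 in placebo had a median of 3.38 CPM at week 7 (1.54 to 14.3), 2.53 CPM at week 11 (1.43 to 11.4) and 2.47 CPM at week 15 (1.55 to 12.5), and fell against week -3 by 1.13 (SE 0.41, adjusted p = 0.0280), 1.499 (SE 0.44, adjusted p = 0.00683) and 1.46 (SE 0.45, adjusted p = 0.0114) on the log2 scale. Without the biopsy that lacked liver RNA it fell by 1.26, 1.62 and 1.58 and ARNTL at week 15 by 1.27, all called. ARNTL had a median of 1.69 CPM at week 15 (1.07 to 12.2, n = 9), which was 1.19 below week -3 on the log2 scale (SE 0.45, adjusted p = 0.0374). That call was lost without animal 1005, 1008, 1011, 1015, 1016, 1017 or 1019 (adjusted p up to 0.112), and that of NPAS2 without 1005, 1011, 1017, 1019 or 1024 at week 7 (up to 0.0776) and without 1005 at week 15 (0.0533). With the sequencing lane as a term, NPAS2 was not called at week 7. At week 11 ARNTL passed without animal 1001 (log2 -1.18, adjusted p = 0.0226) and with a replicate block by animal (-1.04, adjusted p = 0.0176). In both genes the highest value of weeks 11 and 15 came from the same animal, 1001. At week 23 the medians were back at 9.72 CPM for ARNTL and 10.4 CPM for NPAS2, and neither passed against week -3 (log2 0.43, SE 0.43, and 0.50, SE 0.43).

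CRY1 drifted down, from a median of 20.5 CPM at week -3 and 24.1 CPM at week 0 to 14.1 CPM at week 11, 12.7 CPM at week 15, 12.4 CPM at week 19 and 11.3 CPM at week 23, and was called lower than week -3 at those last 4 weeks (log2 -0.60, -0.64, -0.81 and -0.61, adjusted p = 0.0147, 0.0125, 0.0229 and 0.0126). Without the biopsy that lacked liver RNA its log2 change stayed past 1.5-fold at week 19 and not at weeks 11 (-0.54), 15 (-0.58) and 23 (-0.55). The same calls fell under the limit without animal 1008, 1016, 1017, 1019 or 1024 at week 11 (down to -0.53), 1016 or 1017 at week 15 (-0.56 and -0.58) and 1005, 1008, 1015, 1016 or 1024 at week 23 (down to -0.52), and the week 19 call was lost without 1011 or 1016 (adjusted p = 0.0701 and 0.151). With the sequencing lane as a term, CRY1 was called against week -3 at week 19 only. The same held without biopsies over 1% muscle reads. CRY2, in contrast to CRY1, was called at none of the 7 weeks (log2 -0.45 to 0.36, lowest adjusted p = 0.0932).

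In all, 2 members were called at week 3 (PER2 and DBP, both lower) beside 6.21% of genes, 2 at week 7 (PER2 and NPAS2, both lower) beside 14.9%, 4 at week 11 (PER2, NPAS2 and CRY1 lower, NR1D1 higher) beside 13.4% and 5 at week 15 (PER2, NPAS2, ARNTL and CRY1 lower, NR1D1 higher) beside 14.8%. At week 19 there were 3 (PER2 and CRY1 lower, NR1D1 higher) beside 6.87%, and at week 23 there were 4 (PER2, PER3 and CRY1 lower, NR1D1 higher) beside 19.1%. PER2 was the only member called at all 7 weeks. Its week 3 call was lost without animal 1008, 1010, 1015, 1021 or 1024 (adjusted p up to 0.0991) and its week 19 call without 1005, 1010, 1011, 1016, 1019, 1021 or 1024 (up to 0.116). Both calls were also lost without biopsies over 1% muscle reads, and the week 19 call with the lane as a term. Each of these 2 settings ended the DBP call at week 3. The DBP call at week 3 was lost without 1009, 1010, 1011, 1015, 1019, 1021 or 1024 (adjusted p up to 0.147), and the PER3 call at week 23 without 1001, 1009, 1010, 1011, 1017 or 1019 (up to 0.127), without the biopsy that lacked liver RNA (log2 -0.60, adjusted p = 0.0518), with the lane as a term (-0.62, adjusted p = 0.0596) and with the replicate block (-0.47, adjusted p = 0.0621). At week 19 DBP, at 0.90 (SE 0.38, adjusted p = 0.114), passed with that block (0.96, adjusted p = 0.0449) and without animal 1010 (1.06, adjusted p = 0.0470). CLOCK was lower by 0.36 at week 23 (adjusted p = 0.0272), under the 1.5-fold limit, and stayed within medians of 12.9 to 17.6 CPM throughout.

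**Figure D3:**
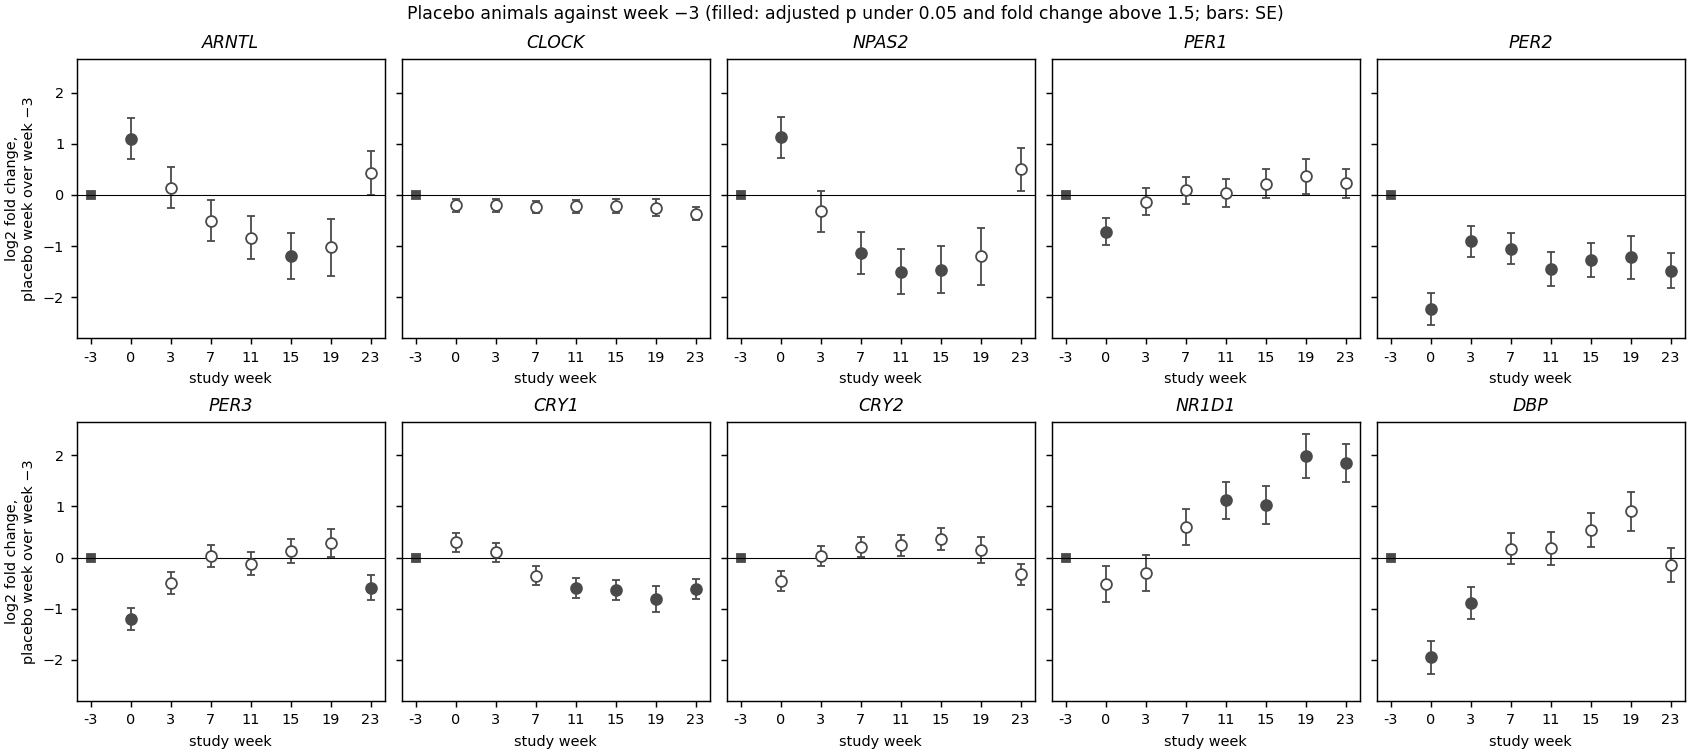
Points give the log2 fold change of each placebo week over week -3 (y axis) by study week (x axis) for each member gene, with SE bars, filled where the adjusted p was under 0.05 and the fold change above 1.5. The square at 0 is week -3. PER2, PER3 and DBP drop at week 0 while ARNTL and NPAS2 peak, and NR1D1 climbs to 1.99 at week 19.

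Each week's wIFN-α biopsies were compared with the placebo biopsies of that week, which asked whether the clock genes differed with interferon at the same week. Whether both groups were biopsied at the same hours was not stated. The part of the hour of sampling in these differences was not tested. Before dosing, at week -3, no member was called (edgeR, 0% of 14963 genes called, 130 of them and no member at an unadjusted p under 0.05, and no gene called by DESeq2 or limma-voom), with or without the 2 biopsies that lacked liver RNA. During dosing the cryptochromes, DBP, PER2 and PER3 were lower in wIFN-α animals and NPAS2 was higher, mostly from week 7. At week 0 PER1 and PER2 were higher in wIFN-α animals, without a call. In no comparison were the ranges of the 2 groups fully separate.

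CRY1, a repressor of the ARNTL partners, was the first to be called and the one called most often. At week 0 its values were 9.37 to 29.2 CPM with a median of 17.1 in wIFN-α (n = 11) and 9.50 to 48.5 CPM with a median of 24.1 in placebo (n = 12), a log2 fold change of -0.56 (SE 0.20, adjusted p = 0.0354) that lay just under the 1.5-fold limit and passed it without animal 1018 (-0.65) or 1023 (-0.62). At week 3 they were 10.3 to 22.9 CPM (median 14.0, n = 9) and 14.8 to 32.1 CPM (median 21.4, n = 12), and at week 15 they were 5.62 to 9.99 CPM (median 8.14, n = 8) and 9.17 to 22.9 CPM (median 12.7, n = 9). At week 15, 8 of 9 placebo biopsies were above the highest wIFN-α biopsy. CRY1 was lower by 0.60 at week 3 (log2, SE 0.15, adjusted p = 0.00599), 0.78 at week 7 (SE 0.22, adjusted p = 0.00596), 0.66 at week 11 (SE 0.18, adjusted p = 0.00768) and 0.73 at week 15 (SE 0.16, adjusted p = 0.00135). The week 3 call lay near the 1.5-fold limit and was lost without animal 1002 (log2 -0.57), 1007 (-0.58), 1012 (-0.55) or 1018 (-0.58), without biopsies with over 1% muscle reads, with the sequencing lane as a term and in limma-voom with a replicate block by animal (-0.56). At week 7 CRY1 did not pass with the lane as a term (-0.54, adjusted p = 0.0841).

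CRY2, the other cryptochrome, showed no call at weeks 0 and 3 (log2 -0.25 and -0.23, adjusted p = 0.340 and 0.380). At week 7 it was 8.27 to 15.9 CPM with a median of 12.3 in wIFN-α (n = 9) and 9.43 to 36.3 CPM with a median of 22.4 in placebo (n = 12). All 9 wIFN-α biopsies were below the placebo median and 10 of 12 placebo biopsies were above the highest wIFN-α biopsy. CRY2 was lower by 0.97 at week 7 (log2, SE 0.19, adjusted p = 0.000202), by 0.71 at week 11 (SE 0.21, adjusted p = 0.0103) and by 0.72 at week 15 (SE 0.15, adjusted p = 0.000918). CRY2 kept these 3 calls when 1 animal was left out (the 9 wIFN-α animals in turn at week 7, both groups at weeks 11 and 15) and with the lane as a term.

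DBP showed the largest decrease of the members. Its values at week 7 were 2.52 to 10.2 CPM with a median of 6.13 in wIFN-α and 3.27 to 38.1 CPM with a median of 14.6 in placebo, and at week 15 they were 4.72 to 22.7 CPM (median 9.10) and 9.12 to 34.4 CPM (median 22.1). All 9 wIFN-α biopsies of week 7 and 7 of 8 of week 15 were below the placebo median. DBP was lower by 1.34 at week 7 (log2, SE 0.36, adjusted p = 0.00380), 0.83 at week 11 (SE 0.32, adjusted p = 0.0477) and 0.97 at week 15 (SE 0.31, adjusted p = 0.0168). The week 11 call was lost without any 1 of 13 of 18 animals (1002, 1008, 1012, 1013, 1014, 1015, 1016, 1017, 1019, 1020, 1021, 1022 and 1024, adjusted p up to 0.0960, log2 -0.64 without 1008) and under 6 other settings at the same fold limit, limma-voom with the replicate block among them (-0.77, adjusted p = 0.0812). With the lane as a term DBP did not pass at week 7 (-0.83, adjusted p = 0.167) or week 11 (-0.69, adjusted p = 0.133).

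Of the period genes, which encode repressors that act with the cryptochromes, PER3 was called at weeks 7 and 15 and PER2 at weeks 7 and 11, and PER1 at none. PER3 was 11.8 to 37.2 CPM with a median of 26.6 in wIFN-α and 20.4 to 55.5 CPM with a median of 41.2 in placebo at week 7, and 16.4 to 39.1 CPM (median 28.6) against 28.1 to 55.4 CPM (median 45.5) at week 15. All wIFN-α biopsies of both weeks were below the placebo median. The log2 fold changes of PER3 were -0.67 at week 7 (SE 0.20, adjusted p = 0.00793), -0.39 at week 11 (SE 0.18, adjusted p = 0.0878) and -0.63 at week 15 (SE 0.18, adjusted p = 0.00990). The week 7 call fell under 1.5-fold without animal 1012 (-0.58), and the week 15 call without 1012 (-0.55), 1017 (-0.58) or 1020 (-0.56) and did not pass in 1 fit of all weeks (-0.65, adjusted p = 0.0827). With the lane as a term PER3 was at -0.39 at week 7 (adjusted p = 0.173).

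PER2 at week 7 was 5.65 to 23.3 CPM with a median of 11.3 in wIFN-α and 7.04 to 25.3 CPM with a median of 17.6 in placebo. At week 11 it was 6.82 to 13.7 CPM (median 8.52) against 5.85 to 21.3 CPM (median 13.7). Below the placebo median were 8 of 9 wIFN-α biopsies at week 7 and 8 of 8 at week 11, yet the ranges overlapped widely. PER2 differed by -0.64 at week 7 (SE 0.23, adjusted p = 0.0261), by -0.59 at week 11 (SE 0.22, adjusted p = 0.0448) and by -0.61 at week 15 (SE 0.25, adjusted p = 0.0574). Its week 7 call was lost without animal 1012 (-0.55) or 1022 (-0.56), with the lane as a term (-0.52), in 1 fit of all weeks (-0.65, adjusted p = 0.0995) and in limma-voom with the replicate block (-0.69, adjusted p = 0.0586). Its week 11 call was lost without any 1 of 12 of 18 animals (1002, 1008, 1012, 1013, 1014, 1015, 1016, 1017, 1020, 1021, 1022 and 1024, adjusted p up to 0.0835) and under 7 other settings at the same fold limit, that block among them (-0.50, adjusted p = 0.251). Its week 15 value passed without 1001, 1011, 1018, 1019 or 1021 (log2 -0.72, -0.67, -0.70, -0.68 and -0.68), and also with RLE scaling (-0.63), without biopsies over 1% muscle reads (-0.68), with the lane as a term (-1.03), with animal 1004 included (-0.69) and by DESeq2 (-0.63).

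PER1 went the other way at week 0, with 15.8 to 80.7 CPM (median 55.9) in wIFN-α and 10.1 to 83.3 CPM (median 31.2) in placebo, a log2 fold change of 0.57 (SE 0.27, adjusted p = 0.111). It passed there without animal 1018 (log2 0.67, adjusted p = 0.0443), with the lane as a term (0.88, adjusted p = 0.0324) and in limma-voom with a replicate block by animal (0.64, adjusted p = 0.0468). From week 3 to week 15 PER1 lay between -0.15 and 0.14. PER2 was also higher at week 0, with 3.79 to 20.5 CPM (median 13.3) in wIFN-α and 2.74 to 14.3 CPM (median 6.48) in placebo. Its log2 fold change was 0.64 (SE 0.31, edgeR adjusted p = 0.119).

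NPAS2 was the 1 member called higher. At week 15 it was 4.67 to 16.2 CPM with a median of 7.31 in wIFN-α (n = 8) and 1.55 to 12.5 CPM with a median of 2.47 in placebo (n = 9). All 8 wIFN-α biopsies were above the placebo median, and 7 of 9 placebo biopsies were below the lowest wIFN-α biopsy. NPAS2 was higher by 1.34 at week 15 (log2, SE 0.39, adjusted p = 0.0107), a call kept under the 13 alternatives run and without any 1 of the 17 animals. At week 11 it was 4.23 to 9.73 CPM (median 6.34, n = 8) against 1.43 to 11.4 CPM (median 2.53, n = 10), with a log2 fold change of 0.88 (SE 0.35, adjusted p = 0.0564). That value passed without placebo animal 1001 (log2 1.27, adjusted p = 0.000798), whose 11.4 CPM was the highest of the 18 biopsies, by DESeq2 (0.86, adjusted p = 0.0411), with the lane (0.98) or sex (0.96) as a term and with animal 1004 included (adjusted p = 0.0485). The placebo median went from 23.5 CPM at week 0 to 2.47 CPM at week 15 and the wIFN-α median from 15.4 to 7.31 CPM.

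ARNTL, its partner, had medians of 3.25 CPM in wIFN-α (2.62 to 5.73) and 1.69 CPM in placebo (1.07 to 12.2) at week 15. No wIFN-α biopsy was below the placebo median, but 1 placebo biopsy, again of animal 1001, was above all others, and the log2 fold change was 0.31 (SE 0.43, adjusted p = 0.604). Without animal 1001 it was 0.99 and passed (adjusted p = 0.00599), as it did by DESeq2 (0.90, adjusted p = 0.00159) and with the lane as a term (1.30, adjusted p = 0.0147). CLOCK was called at no week, with log2 fold changes between -0.27 and 0.16. NR1D1 was not called either, with 0.88 at week 3 (SE 0.46, adjusted p = 0.177) as its widest difference.

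**Figure D4:**
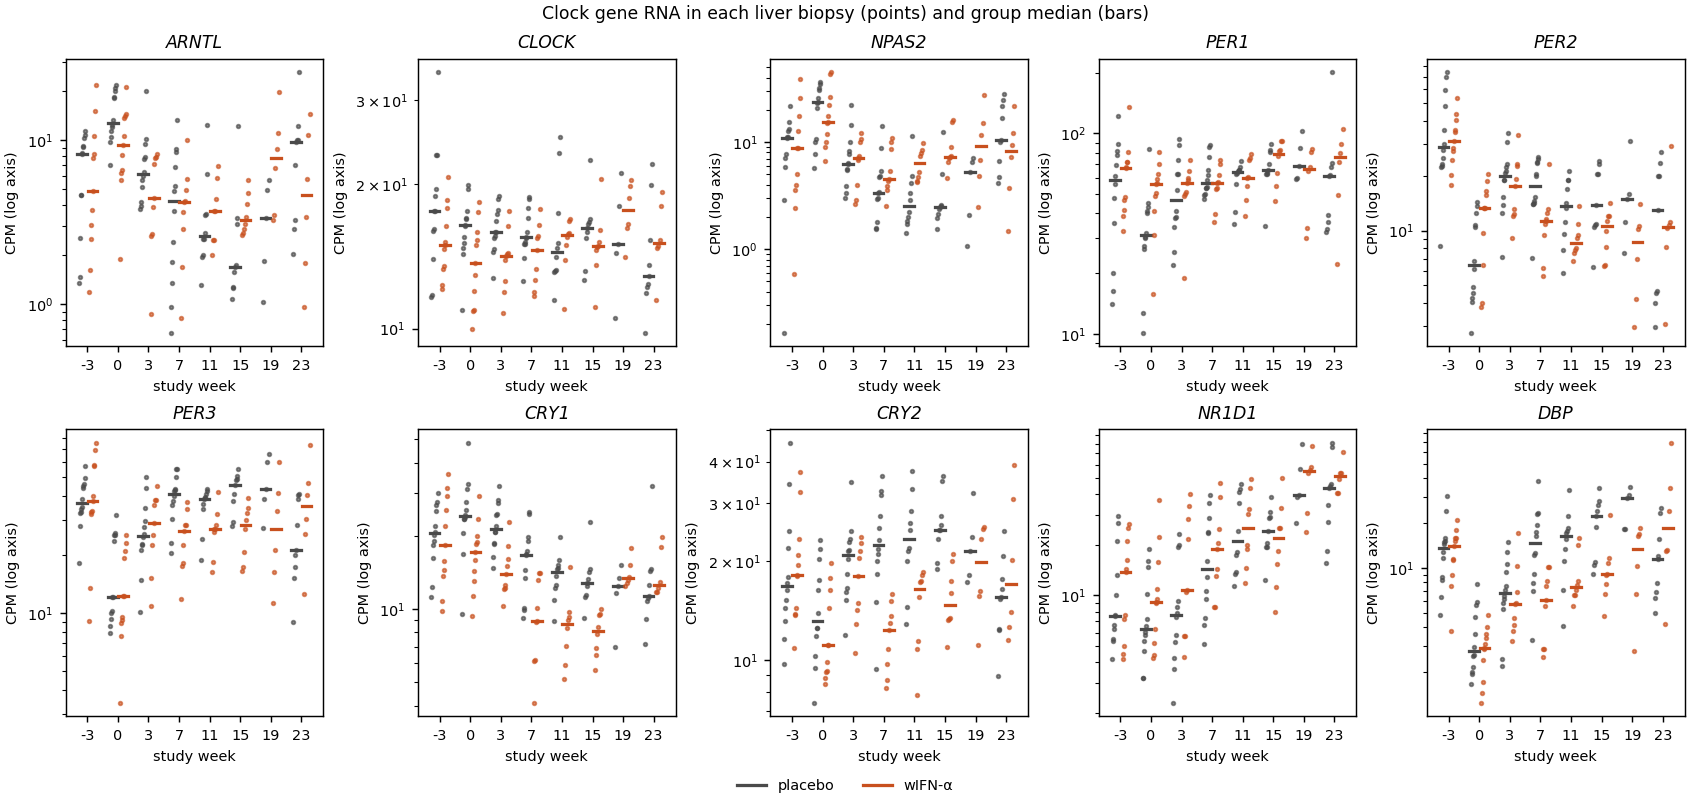
Points give CPM on a log axis (y) for every biopsy by study week (x), grey for placebo and orange for wIFN-α, with bars at the group medians, for each member gene. The orange bars of CRY1, CRY2, PER2, PER3 and DBP lie below the grey ones at weeks 7, 11 and 15, and that of NPAS2 above. The lowest orange and the lowest grey point of NPAS2 at week -3 are the biopsies without liver RNA.

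Counted together, 1 of 10 members was called at week 3, 5 at week 7, 4 at week 11 and 5 at week 15, and none at week 0. The share of all genes called was 18.5% at week 0, 10.8% at week 3, 21.6% at week 7, 20.5% at week 11 and 22.3% at week 15. The calls lower than placebo were 1, 5, 4 and 4 of 10 members at weeks 3, 7, 11 and 15, against 3.54%, 10.1%, 7.98% and 8.83% of all genes. The median log2 fold change of the 10 members was -0.41 at week 7 and -0.35 at week 15, beside -0.03 and -0.01 for all genes tested. At week 0 the 3 members with an unadjusted p under 0.05 were CRY1, CLOCK and PER1, against 6290 of 14700 genes, DESeq2 called none of the 10, and limma-voom called PER1. With the sequencing lane as a term, CRY2 was the 1 member left of the 5 at week 7, while CRY1, CRY2 and NPAS2 were called at week 11, and 7 members at week 15.

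**Figure D5:**
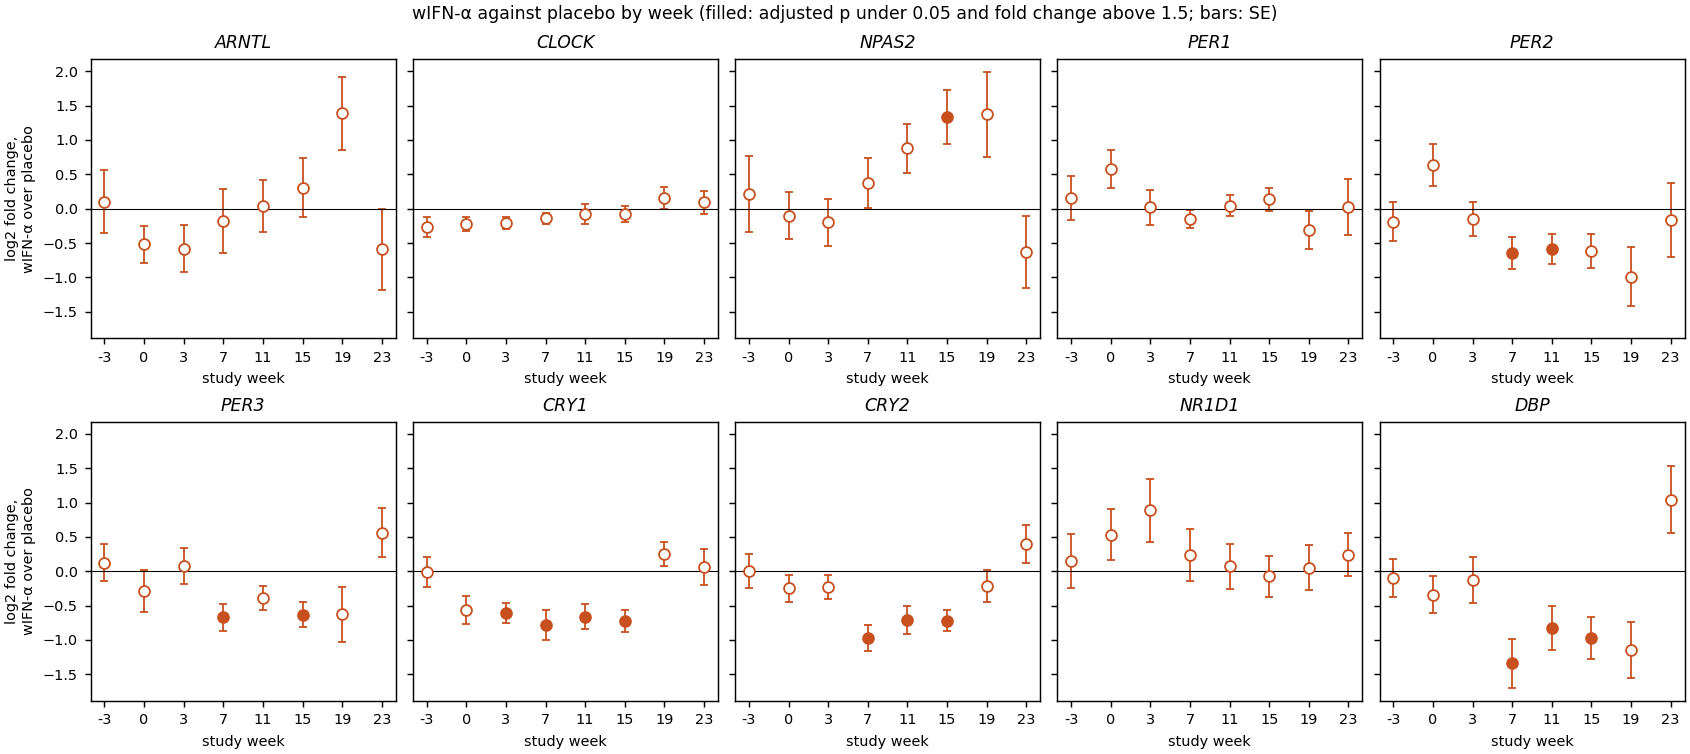
Points give the log2 fold change of wIFN-α over placebo (y axis) by study week (x axis) for each member gene, with SE bars, filled where the adjusted p was under 0.05 and the fold change above 1.5. CRY1 is filled from week 3 to week 15, CRY2 and DBP from week 7 to week 15, and nothing is filled at weeks -3, 0, 19 and 23.

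T and NK cell markers differed with treatment too. The 11 T and NK cell genes, of which CD2, TRAT1, NKG7 and GZMA were at 0 in 1 or 2 of 149 biopsies, together took 0.00854% to 0.0123% of reads in wIFN-α and 0.00428% to 0.00736% in placebo at week 7, and 0.00945% to 0.0246% against 0.00449% to 0.00724% at week 15, with no overlap at either week. The 8 hepatocyte genes took 6.15% to 10.5% against 7.21% to 10.96% at week 7 and 6.61% to 9.95% against 6.82% to 9.52% at week 15, with overlap. Medians of the myeloid, neutrophil and B and plasma cell genes at week 7 were 0.0404%, 0.0110% and 0.00535% in wIFN-α. In placebo they were 0.0424%, 0.00803% and 0.0140%. At week 15 they were 0.0470%, 0.0140% and 0.0157% in wIFN-α against 0.0431%, 0.00857% and 0.0179%. The part of these cell types in the results was not tested.

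After dosing ended, no member was called at week 19 (0% of 14715 genes called by edgeR) or at week 23 (0% of 14956). The unadjusted p was under 0.05 for 4 members (ARNTL 1.39, NPAS2 1.37, PER2 -0.99 and DBP -1.14 on the log2 scale) and 1859 genes at week 19 and for 1 member, DBP, and 2416 genes at week 23. DESeq2 called 94 and 53 genes, none of them members, and limma-voom called 0 and 251, again without a member. In the 5 placebo biopsies of week 19 DBP stood at 18.2, 18.3, 29.3, 30.8 and 34.9 CPM, and in wIFN-α at 2.78 to 18.4 CPM (median 13.3, n = 6), a log2 fold change of -1.14 (SE 0.40, adjusted p = 0.340). At week 23 the sign of DBP was the opposite, with 4.21 to 69.3 CPM (median 18.5, n = 6) against 5.02 to 25.1 CPM (median 11.5, n = 9) and a log2 fold change of 1.04 (SE 0.49, adjusted p = 0.308). CRY1 was at 0.25 (SE 0.17) and 0.06 (SE 0.26) at these weeks.

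Whether the wIFN-α difference changed between weeks was tested in 1 fit of both groups at all weeks, without a term for the animal. No member passed for week 15 against the mean of weeks 0 and 3, where 2.26% of 16232 genes passed, nor for any difference among weeks 0 to 15, where 4.54% did. At an unadjusted p under 0.05 there were 2 members of each test, beside 2315 and 2506 genes. NPAS2 had the largest change of effect, 1.46 (log2, SE 0.57, adjusted p = 0.168), and passed with a replicate block by animal (1.54, adjusted p = 0.0332). PER2, whose wIFN-α difference was 0.64 at week 0 and -0.61 at week 15, had an adjusted p of 0.156 for any difference among the 5 weeks and of 0.02995 with that block. DBP at -0.75 (SE 0.44), CRY2 at -0.50 (SE 0.27) and CRY1 at -0.18 (SE 0.26) did not pass. Dose and time on treatment changed together between these weeks and cannot be told apart.

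Of 18 further clock genes, 16 were found among the gene names (RORB and FBXL21 were not), and 15 or 16 passed the filter on low counts in each week's comparison. Genes of this list and of the lists below were tested under the main setting only. Their calls were not checked with the lane as a term, with 1 animal left out or under any other alternative. Nor were they checked without the biopsies that lacked liver RNA. Called in wIFN-α against placebo were 4 at week 0, 1 at week 3 and 6 at each of weeks 7, 11 and 15. The share of all genes called was 18.5%, 10.8%, 21.6%, 20.5% and 22.3% at weeks 0, 3, 7, 11 and 15. HLF and TEF, the PAR bZIP relatives of DBP, were lower: HLF by 0.88, 0.75, 1.67, 1.35 and 1.41 (log2) at weeks 0, 3, 7, 11 and 15, and TEF by 1.17, 1.18, 0.99 and 1.08 at weeks 0, 7, 11 and 15. NFIL3, which competes with the PAR bZIP factors for the same sites, was higher by 1.26, 1.34, 1.02 and 1.53 at weeks 0, 7, 11 and 15. The repressor gene BHLHE41 was higher by 1.20, 0.72, 1.04 and 1.06 at those weeks, and BHLHE40 by 1.15 at week 11. RORA, a nuclear receptor gene whose product activates ARNTL, was lower by 0.68 and 0.65 at weeks 7 and 11, and CIART (listed as C1orf51) was lower by 1.30 at week 15. The largest adjusted p among these calls was 0.0431, for HLF at week 3. The median of the list was between -0.24 and -0.05 over weeks 0 to 15, beside -0.04 to -0.01 for all genes. In placebo, 12 of the 16 changed over the 8 weeks and 7 over weeks 0 to 15, beside 68% and 32.3% of all genes, among them NR1D2, BHLHE40, TEF, HLF, NFIL3, BTRC and TIPIN in both tests, and ARNTL2, BHLHE41, CIART and TIMELESS over the 8 weeks. Week 0 again differed most from week -3, with 9 of 16 called, beside 8.03% of all genes. Among them were TEF (-1.18), HLF (-0.98), NR1D2 (-1.08), BHLHE41 (-1.505) and CIART (-1.15), all lower. NFIL3 (1.23), BHLHE40 (1.16) and TIPIN (0.73) were higher.

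Liver genes known as rhythmic outputs of the clock numbered 12, all found and tested. In wIFN-α against placebo, 4, 1, 8, 5 and 5 of them were called at weeks 0, 3, 7, 11 and 15. Of all genes, 18.5%, 10.8%, 21.6%, 20.5% and 22.3% were called at these weeks. NAMPT, which makes NAD and is driven by the ARNTL partners, was higher at all 5 weeks (log2 1.19 to 1.34). The other calls were all lower: CYP7A1, the rate-limiting enzyme of bile acid synthesis, by 1.68 at week 0 and by 2.44, 2.32 and 2.33 at weeks 7, 11 and 15, PPARA by 0.77, 0.84, 0.73 and 0.93 at the same weeks, and WEE1, USP2, NOCT (listed as CCRN4L), LPIN1, GYS2, ALAS1 and PCK1 at 1 or 2 weeks each. At week 7 the median of the list was -0.71, beside -0.03 for all genes. In placebo, 11 of 12 changed over the 8 weeks (all but GYS2) and 7 over weeks 0 to 15, beside the same 68% and 32.3% of all genes, and CYP7A1 was called higher than at week -3 in all 7 placebo weeks (log2 1.44 to 3.11). The week -3 values of CYP7A1 include the biopsy without liver RNA.

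Genes that respond to signals which also reset the liver clock were counted beside these. Of 7 temperature-responsive genes, 4, 0, 5, 4 and 2 were called at weeks 0, 3, 7, 11 and 15 of wIFN-α against placebo, all higher: HSPA8 and HSP90AA1 at those 4 weeks, HSPA1A and DNAJB1 at weeks 0, 7 and 11, and HSPH1 at week 7. HSPA1A was higher by 2.65, 2.63 and 1.63 (log2) at weeks 0, 7 and 11. The share of all genes called was 18.5%, 10.8%, 21.6%, 20.5% and 22.3% at weeks 0, 3, 7, 11 and 15. Of 7 glucocorticoid-responsive genes, FKBP5 and DUSP1 were higher at week 0, ZBTB16 lower at week 3, KLF9 lower at week 7, and DUSP1 higher and ZBTB16 lower at week 11. Of 9 fasting and feeding genes, G6PC and ANGPTL4 were higher and SREBF1 lower at week 0, and PDK4 was lower at week 11. In placebo, 6 of 7, 3 of 7 and 8 of 9 of these lists changed over the 8 weeks, again beside 68% of all genes, among them HSPA1A, HSPA8, HSPH1, HSP90AA1, CIRBP and RBM3, then SGK1, KLF9 and TAT, then PDK4, CPT1A, ANGPTL4, IGFBP1, SREBF1 and FASN. FASN, the fatty acid synthase gene, was called higher than at week -3 in all 7 placebo weeks (log2 1.44 to 4.18), and CPT1A, which admits fatty acids to mitochondria, lower in all 7 (-2.85 to -0.99). Both rest on week -3 values that include the biopsy without liver RNA. The part of these genes' signals in the clock gene results was not tested.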

How the data were processed

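Liver RNA was prepared with a poly(A) kit and sequenced as 50-nt paired ends. The authors aligned the reads with Bowtie2 to their woodchuck transcriptome assembly, whose contigs were named by homology to human, mouse and rat genes, and counted them with SAMtools; versions are not given in the sources used here. The deposited tables hold estimated counts per gene, of which 118 of 3368023 above 0 were not whole, and RPKM values, which the authors scaled by length and depth and which served here only to derive gene lengths. Homology naming can split or merge reads of related genes, and the counting was not stated to use strand.

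Counts of the 203 runs were added up per biopsy (164 biopsies), then rounded. Left out were 7 biopsies of animal 1004, which the study excluded, and 8 at other weeks. The viral entry was kept out. The labels count weeks from 1, and they are given here as study weeks from 0. Counts were tested with edgeR 4.0.16 (TMM scaling, quasi-likelihood F tests, Benjamini-Hochberg adjustment over all genes that passed the filter on low counts) in R 4.3.3. A weekly contrast had to pass both an adjusted p of 0.05 and a 1.5-fold change to be called, a test over several weeks the adjusted p alone. SE is the fold change divided by the root of F. CPM are TMM-scaled, with a pseudocount of 1 on the log2 scale. Depth per biopsy limits the precision of the lowest members. In each week's comparison of wIFN-α with placebo, with 1 biopsy per animal, the p-values measure the spread between animals. In the tests over placebo weeks and of a changing effect they measure the spread between biopsies, without a term for the animal. Biopsies of 1 animal recur over weeks, which is where the pairing comes from (consensus correlation 0.2143 in limma 3.58.1). Alternatives were RLE scaling, no filter, 1 run per biopsy, lane, sex, the animal as a replicate block, 1 fit of all weeks, DESeq2 1.42.0, limma-voom, a fold change above 2, other sets of biopsies, and leaving out each animal. The lane of a biopsy was that of its run with the most reads, also in the 38 biopsies whose several runs were summed. Scripts were tested on simulated data. Every member is described, and genes outside the members are named where they belong to a list and were called or where they ranked among the 5 most or least like ARNTL or NR1D1. Members and lists were chosen with earlier results of these data known. Some genes counted in the lists are not reported here by name. No sequences are shown.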

Additional observations from a re-analysis of the deposited data

Results flagged for a closer look

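In 100 groups of 4 to 10 biopsies (a member in 1 week and treatment), 15 had a highest or lowest animal set far from the others. The flag compares the gap to the next animal with the range of the group, in CPM without logs. Members of 1 biopsy are not independent, so no rate of flags by chance is given. Placebo animal 1001 accounted for 9 of the 15. It was highest for ARNTL at weeks 11 (12.3 CPM, the next 6.23), 15 (12.2 CPM, the next 3.36) and 23 (26.0 CPM, the next 12.1). It was highest for NPAS2 at weeks 11 (11.4 CPM) and 15 (12.5 CPM), for CLOCK at week 15 (22.5 CPM) and for CRY1 at weeks 15 (22.9 CPM) and 23 (32.1 CPM), and lowest for PER1 at week 15 (34.6 CPM, the next 62.7).

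The others came from 4 animals. Placebo animal 1005 had 202.05 CPM of PER1 at week 23, against 70.9 for the next. In wIFN-α, animal 1007 was lowest for PER1 at week 3 (18.9 CPM) and highest for PER2 at week 7 (23.3 CPM). Animal 1018 was highest for PER2 at week 23 (29.3 CPM) and for DBP at week 15 (22.7 CPM), and animal 1003 for CRY1 at week 11 (14.9 CPM).

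The 15 biopsies outside the comparisons gave 150 member values, of which 2 lay above and 13 below the whole range of the placebo biopsies with liver RNA, in CPM without TMM scaling. NPAS2 was at 42.7 CPM in a biopsy of wIFN-α animal 1020, which died, against a placebo maximum of 36.7 CPM. NR1D1 was at 94.2 CPM in placebo animal 1017 at a week outside the comparisons, against 83.0 CPM. The 13 low values all came from wIFN-α animals, as did most of the 15 biopsies. The only placebo biopsies among the 15 were those of animals 1010, 1017 and 1024. DBP was at 0.196 and 0.436 CPM in the biopsies of animals 1023 and 1020, which died, and at 1.30 CPM in 1006, against a placebo minimum of 1.77 CPM. PER3 was low in the same 3 biopsies (1.35, 4.21 and 7.94 CPM, placebo minimum 8.60), PER2 in those of 1023 and 1020 (1.96 and 2.76 CPM, placebo minimum 2.89), CRY2 in those of 1023 and 1006 (6.45 and 5.70 CPM, placebo minimum 6.90) and CRY1 in those of 1002, 1006 and 1004 (6.85, 6.46 and 4.62 CPM, placebo minimum 6.88).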

How the results depend on the processing

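Of 183 counts of called members under alternatives other than leaving out 1 animal, 159 stayed within 1.5 times the reported count, and of 206 counts without 1 animal, 158 did. Among 3890 member values, no called value changed sign, 206 no longer passed, 32 newly passed and 91 changed sign while passing under neither setting. For wIFN-α against placebo at week 0 (0 reported), 1 member was called without biopsies over 1% muscle reads, 2 with lane, 1 with animal 1004 and 1 in limma-voom with the replicate block. At week 3 (1 reported) 0 were called at a fold change above 2, without muscle-rich biopsies, with lane or with the block. Week 7 (5 reported) gave 1 at the stricter fold and 1 with lane. Week 11 (4 reported) gave 0 at the stricter fold and 2 each without muscle-rich biopsies, in 1 fit of all weeks and with the block. Week 15 (5 reported) gave 1 at the stricter fold. The stricter fold loses calls by construction, and for the other settings the cause was not tested. In placebo against week -3, week 3 (2 reported) gave 0 at the stricter fold, 0 without muscle-rich biopsies and 1 with lane, week 7 (2 reported) gave 1 with lane, and week 23 (4 reported) gave 2 at the stricter fold, 2 without the biopsy that lacked liver RNA (an alternative chosen after seeing the data) and 2 with lane. With the replicate block 1 member passed in each test of a changing effect (0 reported). Without 1 animal (at weeks 0, 3 and 7 of wIFN-α against placebo only wIFN-α animals were left out), counts ran from 0 to 2, 0 to 1, 3 to 5, 2 to 5 and 4 to 7 at weeks 0, 3, 7, 11 and 15 of wIFN-α against placebo, and stayed at 0 at weeks 19 and 23. In placebo they ran from 8 to 9 in both tests over weeks, and from 3 to 6, 0 to 2, 1 to 2, 2 to 5, 2 to 5, 1 to 3 and 3 to 4 at weeks 0, 3, 7, 11, 15, 19 and 23 against week -3. For the effect at week 15 minus weeks 0 and 3 the count stayed at 0. Week 19 had the fewest placebo animals, 5.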
